A study of Mus musculus with 9 samples.

Results

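Cardiac ion channels and conduction genes were examined as a group of 8 genes chosen by name for their roles in the electrical activity of the heart, *Hcn4*, *Kcnj2*, *Kcnj3*, *Kcnq1*, *Kcnh2*, *Kcne1*, *Gja5* and *Tbx3*, out of 24571 gene symbols used. Hearts of C57BL/6N mouse embryos at E18.5, shortly before birth, had been sequenced as whole organs by RNA-seq of bead-captured mRNA, with 9 libraries in 3 groups of 3. The first group was wild type, the second heterozygous (*Ctcf* +/R567W) and the third homozygous (*Ctcf* R567W/R567W) for a missense allele of *Ctcf* that had been introduced by CRISPR/Cas9 editing. The protein CTCF binds DNA through its zinc fingers and shapes chromatin domains, and R567W replaces an arginine of it with tryptophan in every cell of the carrier, so the heart was not targeted selectively. The dams of all groups had been anaesthetised with Avertin before the embryos were taken, no agent distinguished the groups, and the libraries within a genotype differ only by a replicate number in the labels. The question was whether transcripts of the machinery that starts and spreads the heartbeat differed between the genotypes.

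The heartbeat starts in the sinoatrial node, where HCN channels carry the pacemaker current. It passes from cell to cell through connexins, slowly in the atrioventricular node and fast in the atria and in the His-Purkinje system, and it ends when potassium channels bring the membrane back to rest. The T-box factor *Tbx3* holds nodal cells in their pacemaker state by repressing genes of working muscle. A whole heart contains few nodal and Purkinje cells among many working cardiomyocytes, so in these bulk libraries fewer cells of a type and less RNA per cell cannot be told apart.

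Levels are given as TPM, a transcript abundance scaled for gene length and for the library total, which can be compared between genes. Values of a genotype are listed in the order of replicates 1 to 3. The table keeps no read depth, so the counting error of a value is unknown and the spread over the 3 libraries of a genotype is the measure of precision. All 8 genes were detected in every library and passed the minimum of a mean of 1 TPM, as did 13682 genes in all. Differences were tested with limma on log2(TPM + 1) over all 13682 genes. A log2 change on this scale understates the change of a gene with low values, and a gene was called when its adjusted p was under 0.05.

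None of the 8 genes was called in any of the 3 comparisons, in which at most 0.336% of all genes were called. The genes that stood out most were *Gja5*, with a homozygous mean at 1.98 times the wild-type mean, *Kcne1*, which was lowest in homozygous hearts without overlap with either other genotype, and *Kcnj3*, which was high in all but 1 homozygous library. Homozygous hearts were without overlap for 24.7% of all genes against wild type and for 15.9% against heterozygous hearts. *Gja5* encodes connexin 40, the connexin of atrial and Purkinje muscle and of arterial endothelium. *Kcne1* encodes the beta subunit that slows the potassium channel formed by *Kcnq1*, and *Kcnj3* encodes GIRK1, a subunit of the acetylcholine-gated potassium channel of atrial and nodal cells.

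RefSeq promoters on GRCm38.p6 were matched by symbol for 5 of the 8 genes. The 250 bases before the start site of *Gja5* and *Kcnj3* are shown because these genes had the highest log2 changes between homozygous and wild-type hearts, and those of *Kcnj2* because CTCF, the factor altered in these mice, binds a motif whose core letters occur there. The core was searched on both strands as the letters AGATGGC and in the further version AGAGGGC, the version AGGTGGC and the version AGGGGGC. Capitals mark a match, and each sequence reads 5′ to 3′ on the strand of its gene.
*Gja5*, chr3:97032152-97032401, plus strand: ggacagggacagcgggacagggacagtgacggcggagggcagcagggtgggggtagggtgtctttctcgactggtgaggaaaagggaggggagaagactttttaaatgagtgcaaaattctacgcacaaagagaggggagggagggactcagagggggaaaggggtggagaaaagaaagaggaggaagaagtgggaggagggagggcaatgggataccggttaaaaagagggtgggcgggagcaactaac
*Kcnj3*, chr2:55435720-55435969, plus strand: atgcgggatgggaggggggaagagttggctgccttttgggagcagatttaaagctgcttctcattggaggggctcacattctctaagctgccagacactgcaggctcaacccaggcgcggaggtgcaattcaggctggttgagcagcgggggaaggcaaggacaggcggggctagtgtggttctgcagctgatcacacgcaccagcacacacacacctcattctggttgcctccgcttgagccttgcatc
*Kcnj2*, chr11:111065914-111066163, plus strand: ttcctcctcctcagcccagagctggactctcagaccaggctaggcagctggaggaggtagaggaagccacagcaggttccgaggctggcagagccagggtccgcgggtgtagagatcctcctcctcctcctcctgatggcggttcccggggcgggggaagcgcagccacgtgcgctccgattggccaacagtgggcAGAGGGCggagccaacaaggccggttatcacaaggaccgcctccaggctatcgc
In the whole window of 300 bases, which adds the 50 bases after the start, a core version occurred at no position in *Gja5* and *Kcnj3*, at 1 position in *Kcnj2* and *Hcn4* and at 2 positions in *Kcnh2*, while 27.6% of all 32851 promoters of this length held at least 1. The T-box letters GGTGTGA and the TATA letters TATAAA, searched on both strands, were found in none of the 5 windows, against 3.98% and 13.6% of all promoters. These are matches of letters and not measured binding sites. The paper places the altered arginine in a zinc finger that contacts an upstream motif, and assigns the core to other fingers. A core match therefore need not bear on the substitution. The RefSeq starts of *Gja5* and *Kcnh2* lie inside the longer GENCODE spans of these genes. The window of *Hcn4*, chr9:58822699-58822998, lies wholly before the GENCODE start of that gene at 58823412. The number of CpG pairs was 7 in the *Gja5* window and 10 in that of *Kcnj3*, beside a median of 7 over all promoters, and it was 18 in *Kcnj2*, 19 in *Kcnh2* and 31 in *Hcn4*.

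In wild-type hearts the order of the mean levels ran from *Kcne1* at 106 TPM through *Kcnh2* at 62.1, *Gja5* at 33.3, *Kcnq1* at 24.7, *Kcnj3* at 13.4, *Kcnj2* at 7.24 and *Hcn4* at 7.10 down to *Tbx3* at 4.17 TPM. The ranges of neighbours in that order were separate except for *Gja5* with *Kcnq1* and *Kcnj2* with *Hcn4*. In heterozygous hearts the order was the same, with overlapping ranges for *Kcnq1* with *Kcnj3* and for *Kcnj2* with *Hcn4*. In homozygous hearts *Kcnh2* at 75.8 TPM, *Kcne1* at 68.1 TPM and *Gja5* at 66.0 TPM came together at the top with overlapping ranges, *Kcnj3* at 25.1 TPM stood beside *Kcnq1* at 22.4 TPM, and *Tbx3* again had the lowest level.

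**Figure D1:**
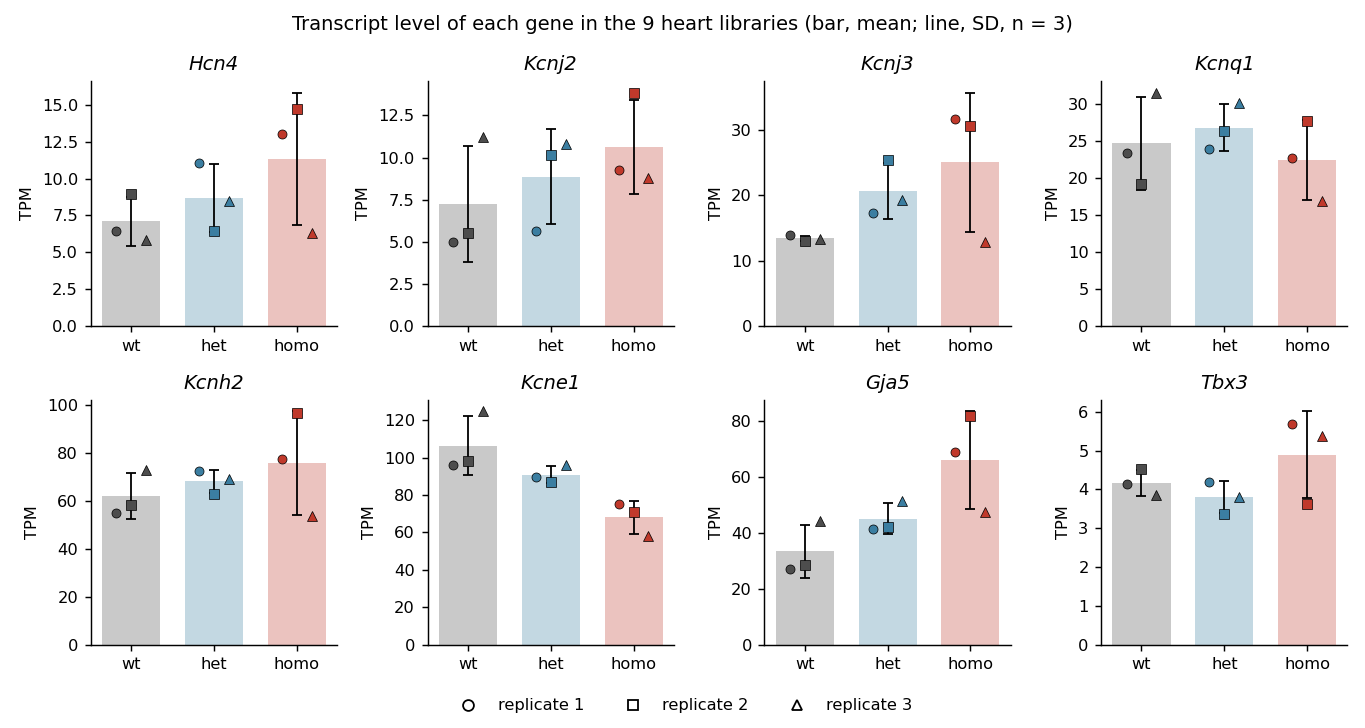
Transcript level in TPM (linear axes from 0, a different range in each panel) of the 8 genes in wild-type (wt), heterozygous (het) and homozygous (homo) hearts; bars are means, lines SD (n = 3) and symbols single libraries by replicate number. Mean *Kcne1* went from 106 TPM (wild type) to 68.1 TPM (homozygous) and *Gja5* from 33.3 to 66.0 TPM, while homozygous replicate 3 was the lowest of its group for 7 of the 8 genes.

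Of the pacemaker genes, *Hcn4* (chr9:58823412-58863175, plus strand, mm10), the main HCN channel of the sinoatrial node, was at 6.47, 8.96 and 5.87 TPM (wild type), 11.1, 6.47 and 8.50 TPM (heterozygous) and 13.1, 14.7 and 6.28 TPM (homozygous). The first and second homozygous libraries were above every other library, and the third lay within the wild-type range. Means in the same order were 7.10 ± 1.64, 8.67 ± 2.29 and 11.4 ± 4.48 TPM (SD, n = 3 each), and homozygous hearts differed from wild type by 0.55 on the log2 scale (SE 0.29, limma adjusted p 0.251). With single libraries left out this was between 0.34 (without homozygous replicate 2) and 0.90 (without homozygous replicate 3), and it was 0.24 after quantile normalization. *Tbx3* (chr5:119670669-119684724, plus strand), the nodal repressor, was at 4.13, 4.52 and 3.85 TPM (wild type), 4.20, 3.37 and 3.81 TPM (heterozygous) and 5.69, 3.61 and 5.38 TPM (homozygous). Homozygous replicates 1 and 3 had the highest values and replicate 2 was among the lowest, so the groups overlapped. The log2 change of *Tbx3* was 0.17 (limma adjusted p 0.542), and it was −0.025 after median-ratio scaling and −0.12 after quantile normalization, so no direction can be given for it.

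Among the inward rectifiers, *Kcnj3* (chr2:55435970-55598145, plus strand) had the tightest wild-type values of the 8 genes in relation to their mean, at 13.9, 13.0 and 13.4 TPM. Heterozygous libraries were at 17.3, 25.5 and 19.3 TPM, all above the wild-type range, and the homozygous libraries were at 31.8, 30.7 and 12.8 TPM. Homozygous replicates 1 and 2 thus exceeded all other libraries, whereas replicate 3 was the lowest of the 9. The means were 13.4 ± 0.417, 20.7 ± 4.29 and 25.1 ± 10.6 TPM (SD, n = 3 each). Against wild type, the homozygous log2 change was 0.75 (SE 0.29, limma adjusted p 0.156) with all libraries and 1.16 without homozygous replicate 3 (limma adjusted p 0.0142), where 2.07% of all genes were called, and it was lowest, at 0.54, without homozygous replicate 1 (limma adjusted p 0.343). The heterozygous change was 0.57 (limma adjusted p 0.672).

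Part of the *Kcnj3* transcript, 30.2% of its 31-base words, is shared with other genes, nearly all with the lincRNA *Gm26794* (chr2:55433514-55437860) on the opposite strand, which spans the start of *Kcnj3* and the promoter printed above. As the use of strand in counting is not stated, reads of the pair in the overlap may not have been told apart. *Gm26794* itself was at 1.37, 2.03 and 2.02 TPM (wild type), 2.21, 2.52 and 2.37 TPM (heterozygous) and 4.0, 3.56 and 1.30 TPM (homozygous), low in the same homozygous library as *Kcnj3*. *Kcnj2* (chr11:111066164-111076821, plus strand), which encodes the Kir2.1 channel that holds the resting potential of working muscle, was at 4.99, 5.53 and 11.2 TPM (wild type), 5.65, 10.1 and 10.8 TPM (heterozygous) and 9.24, 13.9 and 8.79 TPM (homozygous). Wild-type replicate 3 was above 2 of the 3 homozygous libraries, and the log2 change of 0.55 had an interval of −0.13 to 1.23 (limma adjusted p 0.275) and was between 0.36, with wild-type replicate 1 left out, and 0.87, with wild-type replicate 3 left out.

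The delayed rectifiers repolarise the cardiomyocyte. *Kcnq1* (chr7:143106362-143427042, plus strand), the pore subunit of the slow current, was at 23.3, 19.2 and 31.6 TPM (wild type), 23.9, 26.4 and 30.2 TPM (heterozygous) and 22.7, 27.7 and 16.8 TPM (homozygous). All 3 groups overlapped, and the homozygous log2 change against wild type was −0.13 (limma adjusted p 0.693), and it was above 0 in 4 of the 24 other settings. The antisense transcript *Kcnq1ot1*, which lies within *Kcnq1* and shares 2.40% of its words, was low and under the minimum of 1 TPM, so it was not tested. It was at 0.19, 0.22 and 0.21 TPM (wild type), 0.32, 0.34 and 0.21 TPM (heterozygous) and 0.30, 0.27 and 0.41 TPM (homozygous). Every homozygous library was above every wild-type library, while 24.7% of the tested genes had these groups without overlap in either direction. *Kcnh2* (chr5:24319589-24351604, minus strand), the pore subunit of the rapid current, was at 55.0, 58.3 and 72.9 TPM (wild type), 72.3, 62.8 and 69.3 TPM (heterozygous) and 77.3, 96.7 and 53.5 TPM (homozygous). Its homozygous values spanned a wider range than those of the other genotypes, from below every other library to above every other library, and the log2 change was 0.26 (limma adjusted p 0.404), close to the median of all genes. It was 0.062 without homozygous replicate 2, 0.48 without homozygous replicate 3 and 0.016 after median-ratio scaling.

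*Kcne1* (chr16:92345982-92359468, minus strand) was at 96.3, 98.2 and 125 TPM (wild type), 89.8, 87.0 and 96.15 TPM (heterozygous) and 75.4, 70.7 and 58.3 TPM (homozygous). The 3 genotypes did not overlap, although heterozygous replicate 3, at 96.15 TPM, lay only just below wild-type replicate 1, at 96.27 TPM. The means were 106 ± 16.0, 91.0 ± 4.69 and 68.1 ± 8.83 TPM (SD, n = 3 each), which placed the homozygous mean at 0.640 times the wild-type mean. The homozygous log2 change against wild type was −0.63 (SE 0.13, 95% interval −0.93 to −0.34) with a limma adjusted p of 0.0814. It was −0.42 when homozygous hearts were set against heterozygous hearts (SE 0.13, limma adjusted p 0.598), and heterozygous hearts differed from wild type by −0.22 (limma adjusted p 0.672). The gene shares none of its 31-base words with other transcripts of GENCODE M21, although the annotation used in counting is not given. After median-ratio scaling the change against wild type was −0.87 and passed the threshold (limma adjusted p 0.000747), where 1.67% of all genes were called. Without wild-type replicate 3 it was −0.52 (limma adjusted p 0.0326) in a fit that called 15.8% of all genes, and without any other single library it was between −0.71 and −0.53 and did not pass (limma adjusted p up to 0.274).

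*Gja5* (chr3:96904693-97077416, plus strand) was at 27.2, 28.3 and 44.4 TPM (wild type), 41.4, 42.2 and 51.4 TPM (heterozygous) and 68.9, 81.8 and 47.4 TPM (homozygous). Every homozygous library was above every wild-type library, but homozygous replicate 3 exceeded wild-type replicate 3 by a small margin and lay within the heterozygous range. The means were 33.3 ± 9.62, 45.0 ± 5.59 and 66.0 ± 17.4 TPM (SD, n = 3 each), a ratio of 1.98 between homozygous and wild-type hearts. The log2 change was 0.97 (SE 0.23, 95% interval 0.47 to 1.47, limma adjusted p 0.0961), higher than that of 97.8% of all genes. It was 1.19 both without homozygous replicate 3 (limma adjusted p 0.0287) and without wild-type replicate 3 (limma adjusted p 0.0207), in fits that called 2.07% and 15.8% of all genes. Without any other single library it was between 0.80 (without homozygous replicate 2) and 0.97 and did not pass (limma adjusted p up to 0.336). The difference of homozygous from heterozygous hearts was 0.51 (limma adjusted p 0.698) and that of heterozygous from wild-type hearts 0.45 (limma adjusted p 0.672). Reads of *Gja5* are in part uncertain, since 16.6% of its 31-base words occur in other transcripts, 13.9% in *Zfp697*.

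**Figure D2:**
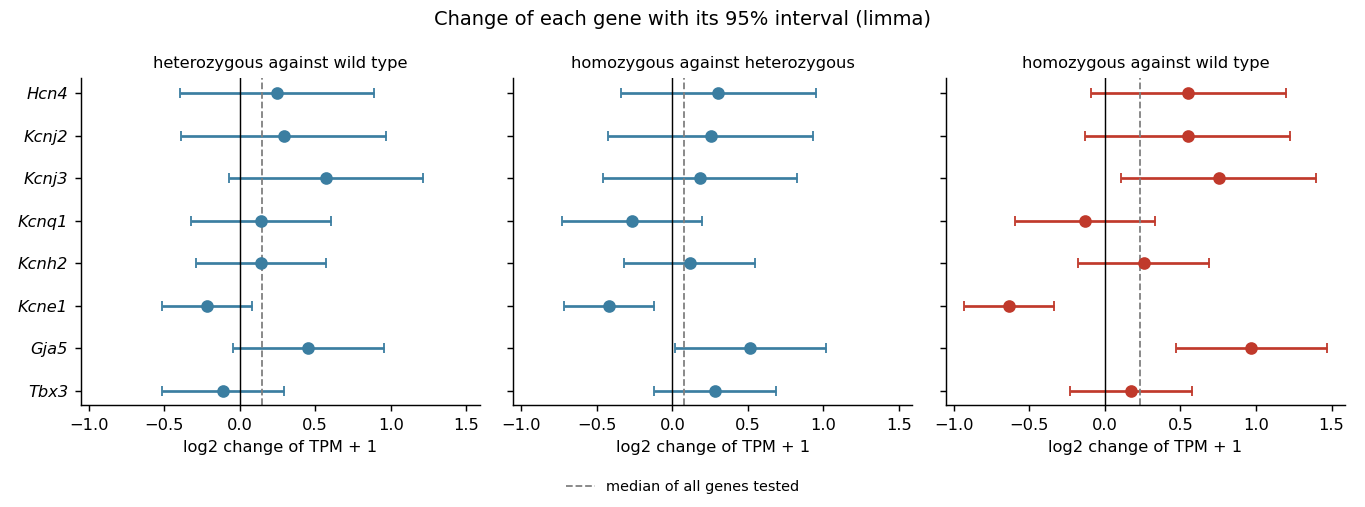
Log2 change of TPM + 1 (horizontal axis) of each gene (vertical axis) in the 3 comparisons; points are limma estimates from all 9 libraries, bars their 95% intervals, and the dashed line is the median of all 13682 genes. In homozygous against wild-type hearts the intervals of *Gja5* (0.47 to 1.47), *Kcnj3* (0.11 to 1.39) and *Kcne1* (−0.93 to −0.34) leave out 0, and no adjusted p is under 0.05.

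The counts were read against those of all genes. In homozygous against wild-type hearts 0 of the 8 genes were called, beside 46 of 13682 genes (0.336%), while 3 had an unadjusted p under 0.05 (*Gja5*, *Kcne1* and *Kcnj3*), beside 25% of all genes, and 2 had groups without overlap (*Gja5* and *Kcne1*), beside 24.7%. In homozygous against heterozygous hearts 0 were called (0.0439% of all genes), 2 had an unadjusted p under 0.05 (*Gja5* and *Kcne1*, beside 7.15%) and 1 was without overlap (*Kcne1*, beside 15.9%). In heterozygous against wild-type hearts 0 were called (0.0146%), 0 had an unadjusted p under 0.05 (6.87%) and 2 were without overlap (*Kcnj3* and *Kcne1*, beside 13.8%). The share of the 8 genes without overlap against wild type was thus close to that of all genes in the homozygous comparison.

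All genes together were displaced, with a median log2 change of 0.23 between homozygous and wild-type hearts, 0.08 between homozygous and heterozygous hearts and 0.15 between heterozygous and wild-type hearts. The first of these became 0.02 after median-ratio scaling. Relative to 0.23, the homozygous change was 0.74 for *Gja5*, 0.52 for *Kcnj3*, 0.32 for *Hcn4* and *Kcnj2*, 0.02 for *Kcnh2*, −0.06 for *Tbx3*, −0.36 for *Kcnq1* and −0.87 for *Kcne1*. The 8 genes therefore did not share 1 direction. Their median was 0.40, beside the 0.23 of all genes.

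The scaling of a library multiplies both genes of a ratio alike, apart from the 1 TPM added to each for the tests. The ratio of *Gja5* to *Gja1*, the connexin 43 gene of working muscle, was 0.159, 0.156 and 0.134 (wild type), 0.163, 0.139 and 0.169 (heterozygous) and 0.250, 0.288 and 0.220 (homozygous). All homozygous libraries, replicate 3 included, were above both other groups, which overlapped each other. On the log2 scale, with 1 TPM added to each gene, the difference between homozygous and wild-type hearts was 0.73 and that between homozygous and heterozygous hearts 0.67, with a two-sided exact permutation p of 0.1 for each, below which 3 against 3 libraries cannot go. Between heterozygous and wild-type hearts it was 0.06 (exact p 0.5). *Gja5* alone was likewise above wild type in every homozygous library. How often ratios of other gene pairs over the whole table separate the genotypes was not computed.

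The ratio of *Kcne1* to *Kcnq1*, the beta to the pore subunit of the slow channel, was 4.12, 5.12 and 3.96 (wild type), 3.75, 3.30 and 3.18 (heterozygous) and 3.32, 2.55 and 3.46 (homozygous). Both mutant groups were below the wild-type libraries and overlapped each other. The log2 differences from wild type were −0.50 for homozygous and −0.35 for heterozygous hearts (exact permutation p 0.1 each), and between the mutant genotypes −0.15 (exact p 0.6). For *Kcnj3* to *Kcnj5*, the subunits of the acetylcholine-gated channel, the difference between homozygous and wild-type hearts was 0.31 (exact p 0.3), with values of 0.16 (without wild-type replicate 3) to 0.46 (without homozygous replicate 3) when single libraries were left out. For *Hcn4* to *Hcn2* it was 0.52 (exact p 0.3), from 0.30 without homozygous replicate 2 to 0.87 without homozygous replicate 3. As *Hcn2* was between 0.47 and 0.97 TPM, the added 1 TPM lowers this ratio, and with 0.1 TPM added the difference was 0.51. The 4 ratios and 3 comparisons gave 12 exact tests, none of which can pass 0.05 in this design, and the Benjamini-Hochberg adjusted value of each exact p of 0.1 was 0.3.

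**Figure D3:**
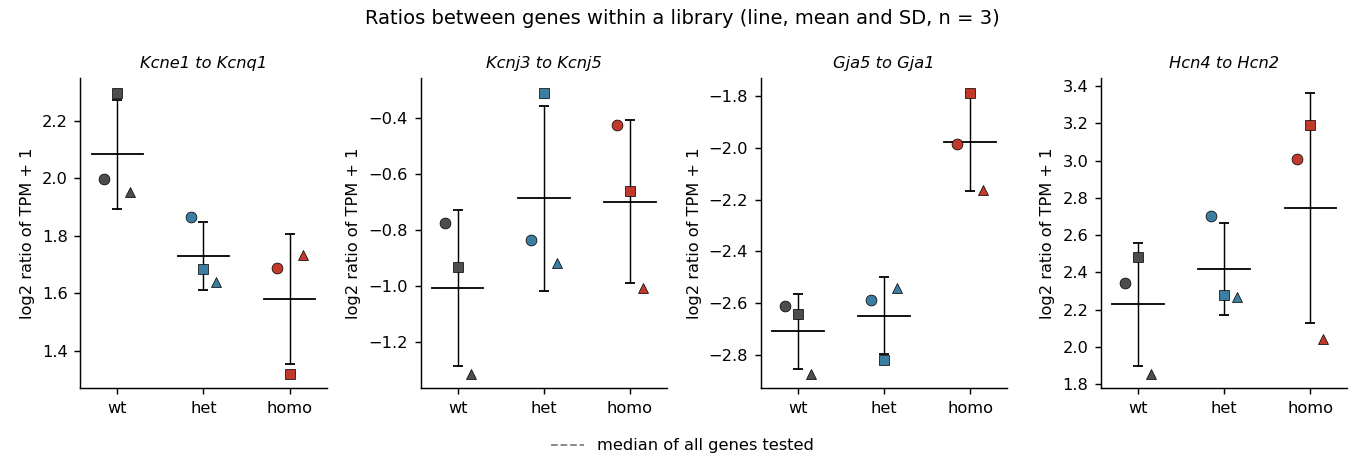
Log2 ratio of TPM + 1 between pairs of genes within each library (vertical axes, not starting at 0) for the 3 genotypes; symbols are libraries, lines the mean and SD (n = 3). The *Gja5* to *Gja1* ratio averaged −2.71 in wild-type, −2.65 in heterozygous and −1.98 in homozygous hearts, and the *Kcne1* to *Kcnq1* ratio 2.08, 1.73 and 1.58.

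Homozygous replicate 3 stood apart. It was the lowest library of its genotype for 7 of the 8 genes, all but *Tbx3*, where 58.7% of all tested genes had it lowest, and wild-type replicate 3 was the highest of its genotype for 5 of the 8 genes, against 70.6% of all genes. The 8 atrial muscle markers summed to 4994 TPM in homozygous replicate 3 and to between 8642 and 11874 TPM in the other libraries, and the 7 ventricular markers to 17530 TPM against 19152 to 22713 TPM. The ventricular sum was mostly *Myl2*, at 10100 TPM in that library. There *Myl2*, *Myl3* and *Irx4* were lowest of all libraries, whereas *Myh7*, *Hey2*, *Pln* and *Mpped2* were above wild-type replicate 1. The 15 thymocyte genes summed to 855 TPM in homozygous replicate 3 against 17.96 to 31.9 TPM, with the recombinase genes *Rag1* at 92.4 TPM and *Rag2* at 18.1 TPM there and at or near 0 elsewhere. The 7 cardiomyocyte markers were abundant in all 9 libraries, but their sum was lowest in homozygous replicate 3, at 17529 TPM against 20882 to 25509 TPM. All 7 had a log2 change below 0 in homozygous against heterozygous hearts (median −0.27). Against wild type 3 were above and 4 below 0 (median −0.03). The part of muscle content in the *Kcne1* values was not tested. The part of atrial and thymic content in the low values of *Hcn4*, *Kcnj3* and *Gja5* in that library was not tested. Arterial endothelium, which also expresses *Gja5*, had a marker sum (8 genes) of 131 to 148 TPM (wild type), 147 to 173 TPM (heterozygous) and 156 to 197 TPM (homozygous), higher in homozygous than in wild-type hearts without overlap. Without the chemokine gene *Cxcl12* the other 7 genes summed to 79.3, 87.2 and 91.9 TPM (wild type) and 109, 116 and 79.95 TPM (homozygous), which overlapped, and the median change of the list was 0.28, beside 0.23 for all genes. The part of arterial endothelium in the *Gja5* values was not tested.

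**Figure D4:**
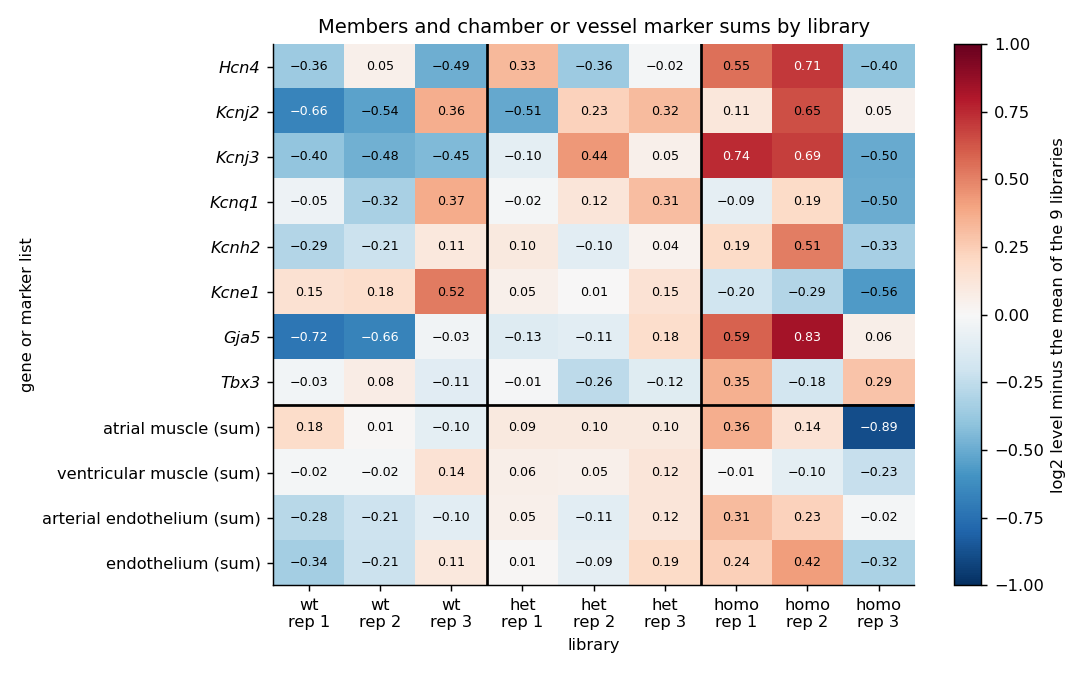
Log2 level of the 8 genes, and of the summed markers of atrial and ventricular muscle, arterial endothelium and endothelium, minus the mean of the 9 libraries (colour and printed value), by library. Homozygous replicate 3 is low for *Kcnj3* (−0.50), *Kcnq1* (−0.50) and the atrial sum (−0.89), whereas homozygous replicates 1 and 2 are high for *Hcn4*, *Kcnj3* and *Gja5*.

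Other markers were uneven as well. The 12 airway and lung genes summed to 2629 TPM (wild-type replicate 1) and 1109 TPM (heterozygous replicate 1), and to at most 52.9 TPM elsewhere. The 15 liver genes summed to 4117 TPM in heterozygous replicate 1 against at most 169 TPM. The 7 erythroid genes varied between 2853 and 15542 TPM, and the 9 genes of cardiac ganglia and Schwann cells between 5.56 and 11.2 TPM. The 7 endothelial genes summed to 280 to 382 TPM (wild type), 332 to 405 TPM (heterozygous) and 417, 473 and 284 TPM (homozygous). Homozygous replicates 1 and 2 were thus highest, as for *Hcn4*, *Kcnj3* and *Gja5*, and the part of endothelium in those values was not tested. With the libraries of high airway, liver or thymocyte sums left out (wild-type replicate 1, heterozygous replicate 1 and homozygous replicate 3), a setting chosen after seeing the data, *Kcnj3* passed in homozygous against wild-type hearts (log2 change 1.18, limma adjusted p 0.0303), with 0.395% of all genes called. The *Ctcf* transcript was present in all libraries, at 27.0 to 34.3 TPM (wild type), 33.2 to 38.7 TPM (heterozygous) and 38.9 to 50.2 TPM (homozygous). A substitution need not alter the transcript level, but every homozygous library was above every library of the other genotypes. Of all genes, 24.7% were without overlap in homozygous against wild-type hearts and 15.9% in homozygous against heterozygous hearts. The cause of the *Ctcf* difference was not tested. *Xist*, transcribed in female cells, was at 87.8 TPM in wild-type replicate 1, at 112 to 146 TPM in the heterozygous libraries, at 123 TPM in homozygous replicate 1 and no higher than 0.05 TPM elsewhere, so the heterozygous group differed in sex make-up from both others. With *Xist* as a covariate none of the 8 genes was called, as without it, so that count does not test an effect of sex.

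Other genes of excitation and conduction were taken from a list of 63 genes, of which 62 were in the table and 54 passed the minimum level. None was called in any comparison. Against wild type 40 had a log2 change above 0 and 14 below 0 in homozygous hearts, with a median of 0.27, beside 0.23 for all genes, and 8 (14.8%) had groups without overlap, beside 24.7% of all genes. In heterozygous against wild-type hearts the counts were 45 above and 9 below 0 with a median of 0.23, beside 0.15, and 12 (22.2%) were without overlap, beside 13.8%. In homozygous against heterozygous hearts 28 were above and 26 below 0 with a median of 0.01, beside 0.08, and 2 (3.70%) were without overlap, beside 15.9%. By group, the median homozygous change was 0.22 for 10 pacemaker and calcium channel genes, 0.28 for 7 inward rectifier and KATP subunits, 0.14 for 11 voltage-gated and background potassium subunits, 0.35 for 4 connexins, 0.16 for 13 transcription factors and 0.39 for 9 other conduction genes.

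Partners of the 8 genes were named by a rule. *Kcnj5*, which encodes GIRK4, the partner of *Kcnj3*, was at 24.4, 25.8 and 34.7 TPM (wild type), 31.6, 31.8 and 37.3 TPM (heterozygous) and 43.1, 49.1 and 26.8 TPM (homozygous), with the homozygous replicates 1 and 2 highest and replicate 3 within the wild-type range (log2 change 0.44, limma adjusted p 0.221). *Gja1* was at 171, 182 and 332 TPM (wild type), 254, 304 and 304 TPM (heterozygous) and 276, 284 and 216 TPM (homozygous), where wild-type replicate 3 was the highest of all (log2 change 0.24, limma adjusted p 0.499). *Gjc1*, the connexin 45 gene of the nodes, had means of 28.7 ± 5.39, 38.3 ± 1.75 and 36.4 ± 4.57 TPM (SD, n = 3 each). Its homozygous and wild-type libraries overlapped, whereas every heterozygous library was above every wild-type library (log2 change 0.42, limma adjusted p 0.672).

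In each group the gene with the greatest change in homozygous hearts was also taken. *Kcne3*, another beta subunit of voltage-gated potassium channels, was at 7.07, 6.90 and 9.24 TPM (wild type), 9.56, 8.91 and 5.94 TPM (heterozygous) and 4.02, 4.57 and 3.89 TPM (homozygous). As for *Kcne1*, its homozygous values were below both other groups, with a log2 change against wild type of −0.75 (limma adjusted p 0.0983) that passed after median-ratio scaling (−0.96, limma adjusted p 0.0347). *Cacna2d2*, an auxiliary subunit of calcium channels, was at 12.1, 13.3 and 10.1 TPM (wild type), 17.0, 14.6 and 15.5 TPM (heterozygous) and 24.2, 44.0 and 9.59 TPM (homozygous), where replicate 3 was again the lowest (log2 change 0.84, limma adjusted p 0.214). *Etv1*, a factor of fast-conducting atrial and Purkinje muscle, had a log2 change of 0.67 (limma adjusted p 0.150). *Gjd3*, a nodal connexin gene, had a wild-type mean of 0.877 ± 0.270 TPM and a homozygous mean of 2.46 ± 0.968 TPM (SD, n = 3 each), a low level with a log2 change of 0.86 (limma adjusted p 0.137). *Kcnj8* and *Cpne5* had log2 changes of 0.46 and 0.77 (limma adjusted p 0.226 and 0.234). Chosen after the values were seen, *Irx3*, a factor of the ventricular conduction system, was at 9.16, 9.95 and 13.7 TPM (wild type), 15.2, 16.8 and 15.9 TPM (heterozygous) and 20.3, 16.1 and 16.9 TPM (homozygous), and *Kcnip2*, which encodes the accessory subunit of the transient outward channel, averaged 40.9 ± 6.09, 58.5 ± 7.88 and 62.0 ± 9.58 TPM (SD, n = 3 each). For both, each mutant group was above the wild-type libraries without overlap, and the adjusted p of the homozygous change was 0.0970 for *Irx3* and 0.106 for *Kcnip2* by limma.

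**Figure D5:**
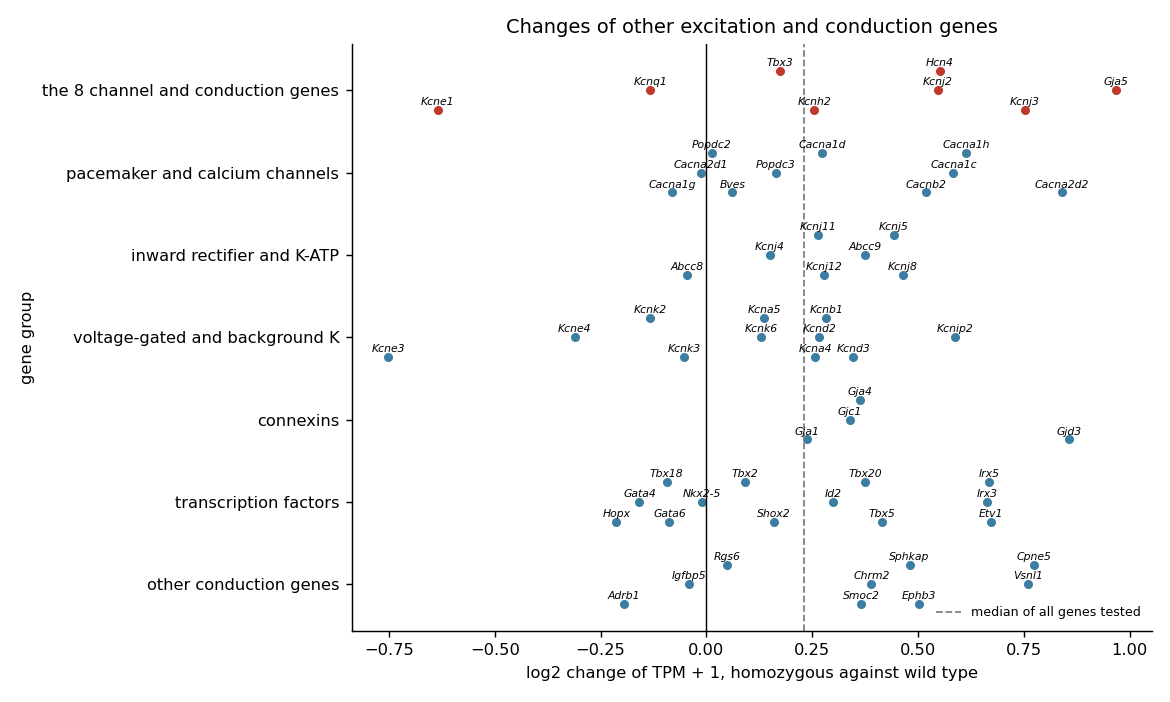
Log2 change of TPM + 1 between homozygous and wild-type hearts (horizontal axis) of the 8 genes (red) and of the 54 other excitation and conduction genes tested (blue), by gene group; vertical offsets within a group only separate the names. Values run from −0.75 (*Kcne3*) to 0.97 (*Gja5*), and the dashed line marks the median of all genes at 0.23.

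Genes with the most similar pattern over the 9 libraries were found as those with the smallest root-mean-square difference between centred log2 values, among 9951 genes (9952 for *Tbx3*) with a mean of at least 5 TPM. For *Kcnj3* they were *Etv1* (0.16) and *Slc16a12* (0.17), and for *Gja5* they were *Dnajc28* (0.11) and *Rin2* (0.12). For *Kcne1* they were *Glipr2* and *Slc16a3* (0.09 each), for *Hcn4* *Maob* and *Smoc2* (0.15 each) and for *Kcnj2* *Trdmt1* (0.14) and *Lamb2* (0.16). For *Kcnq1* they were *Bbs5* (0.04) and *Smpd1* (0.10), for *Kcnh2* *Ptk7* and *Nfe2l1* (0.06 each), and for *Tbx3* *Srebf1* (0.11) and *BC055324* (0.12). The root-mean-square spread of the 8 genes themselves ran from 0.19 for *Tbx3* to 0.48 for *Kcnj3* and *Gja5*. *Etv1* and *Smoc2* were themselves on the list of conduction genes.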

How the data were processed

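Whole hearts of embryos of 3 *Ctcf* genotypes were sequenced after poly-A capture, with 3 libraries each, and grouped by the sample titles. Reads were trimmed with Trim Galore, aligned to mm10 with STAR and quantified with RSEM by the authors, who deposited TPM per gene and library, a value scaled for transcript length and library total. Which annotation release was used, and whether strand was, is not given in the sources used here. The study's DESeq2 tests need counts and were not run. TPM keeps no depth, so no counting error could be given, and p-values measure only the spread between libraries. The labels do not say that each library came from a separate embryo.

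Of 24597 symbols, 26 that had turned into dates were left out (at most 0.0921% of a library's TPM). A model of genotype was fitted to log2(TPM + 1) of 13682 genes (mean over the 9 libraries of 1 TPM or more) with limma (v3.58.1, eBayes with trend) in R (v4.3.3). P-values were two-sided and adjusted by the Benjamini-Hochberg method over all genes. The scripts were tested on simulated data. Ratios were compared by exact permutation over libraries. The 8 genes and the lists were chosen with earlier results of these data known. Named beside them were *Kcnj5*, *Gja1*, *Gjc1* and *Hcn2* as partners, and the tested gene with the greatest change in each list group. Coordinates are from GENCODE M21 on mm10 and promoters from RefSeq. Alternatives covered the pseudocount, the minimum level, the scaling, the variance model, library weights, *Xist* as a covariate, a replicate block and left-out libraries.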

Additional observations from a re-analysis of the deposited data

How the results depend on the processing

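Of 573 recomputed values over 24 other settings, 538 kept their direction and their side of the threshold. Several of these settings cannot move a log2 change, so its direction was fixed there and only the adjusted p could differ. They are the minimum level, the variance model, the fit of only the groups compared and the replicate block. Leaving out a library of the genotype not compared is another. Counts below are for homozygous hearts against wild type, then against heterozygous hearts, then for heterozygous hearts against wild type. With library weights (arrayWeights, whose fit stopped before it converged) 6, 1 and 3 of the 8 genes were called, and 35, 2 and 17 of the listed conduction genes, beside 64%, 1.71% and 32.3% of all genes. In the first comparison 1 of the 8 genes, *Kcne1*, was called with median-ratio scaling, with quantile normalization and with rescaling without mitochondrial and haemoglobin genes, and 1, *Kcnj3*, with the airway-, liver- and thymus-marker libraries left out. Scaling by median ratios or quantiles called 1 listed conduction gene there, *Kcne3*, and median ratios called 1 of the 8 genes, *Kcne1*, in the second comparison. With single libraries left out the counts in the first comparison ran from 0 to 2 of the 8 genes and from 0 to 6 of the listed genes, highest without wild-type replicate 3 or homozygous replicate 3, where 15.8% and 2.07% of all genes were called. Over all genes 46, 6 and 2 were called, and 229, 15 and 5 with median-ratio scaling. The 46 became 2161 without wild-type replicate 3, 279 without homozygous replicate 3, 14 without wild-type replicate 2 and 8755 with arrayWeights.

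In the first comparison the change of *Kcnq1* reversed to 0.23 (arrayWeights), 0.026 (airway-, liver- and thymus-marker libraries left out) and 0.05 without wild-type or homozygous replicate 3, with a range of −0.29 to 0.053 over single left-out libraries, and that of *Tbx3* to −0.025 (median-ratio) and −0.12 (quantile). In the second, *Kcnj2* reversed to −0.013 (*Xist* covariate) and −0.0071 (airway-marker libraries left out), with a left-out range of −0.0071 to 0.41, *Kcnj3* had a left-out range of −0.034 to 0.59 and *Kcnh2* of −0.079 to 0.34. In the third, *Kcnq1* reversed to −0.019 (median-ratio) and −0.018 (quantile), with a left-out range of −0.022 to 0.32, and *Kcnh2* to −0.020 (median-ratio). The cause was not tested. *Tbx3* has no value at a minimum of 5 TPM.

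With the replicate block 0 of the 8 genes were called in each comparison, and *Gja5* was at 0.97 (limma adjusted p 0.129). Same-numbered libraries deviated together with r of −0.031 to 0.359 (median 0.044), and different-numbered ones with r of −0.314 to 0.121 (median −0.016). The highest were wild-type with heterozygous replicate 1 (0.359) and wild-type with heterozygous replicate 3 (0.297). The labels do not say that a number pairs libraries, and the main fit did not use the numbers. Whether they mark a shared batch was not tested.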
